A study of Mus musculus with 47 samples.

Results

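Nitric oxide signalling was followed in single NPY-positive neurons through 7 genes: Nos1, Nos1ap, Gucy1a2, Gucy1a3, Gucy1b3, Prkg1 and Prkg2. They were chosen by name as the neuronal synthase, its adaptor, the subunits of the soluble guanylyl cyclase and the cGMP-dependent kinases, and all 7 are among the 22800 gene symbols of the count table. Of the 47 cells of the table, 26 were used, namely 10 from layers 1 and 2 of the auditory cortex (AC), 13 from the border of stratum lacunosum-moleculare of area CA3 and 3 labelled as CA1. All 26 are NPY-positive by label, came from mice of both sexes aged 3 to 8 weeks of the NPY-hrGFP strain, in which a green fluorescent protein marks cells that express neuropeptide Y, and received no treatment that the labels name. The cytosol of each neuron was drawn into the patch pipette after recording, reverse transcribed and sequenced, so that each library is 1 cell. The whole set came from 8 mice, but no label ties a cell to a mouse, and AC slices were coronal whereas CA3 slices were horizontal. Each region was therefore taken as 1 sample, no test between regions was made, and every SD given is the spread over cells.

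Neuronal nitric oxide synthase, the product of Nos1, makes nitric oxide from arginine when calcium and calmodulin bind to it. The gas diffuses into neighbouring cells, or acts within the same cell, and binds the heme of soluble guanylyl cyclase, an enzyme that works as a pair of an alpha and a beta subunit and turns GTP into cGMP. cGMP in turn activates the kinases encoded by Prkg1 and Prkg2 and is broken down by phosphodiesterases. Neurogliaform cells, the late-spiking interneurons to which many NPY-positive cells of superficial cortex and of stratum lacunosum-moleculare belong, are known as a source of nitric oxide.

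Depth ranged from 1715012 to 6265431 reads on genes per cell in AC, from 2229519 to 7949918 in CA3 and from 601781 to 3202430 in CA1. Gad1, which encodes a GABA-synthesizing enzyme, was read in all 26 cells. Sst, Chodl, Vip and Calb2, markers of other interneuron classes, had no read in any of them. Further class markers did have reads, with Cck read in 15 cells, Calb1 in 6, Tacr1 in 3 and Pvalb in 2. Markers of other cell types, taken as 5 lists of 6 genes for pyramidal cells, astrocytes, oligodendrocytes, microglia and vascular cells, summed to more than 1000 CPM (counts scaled to 1000000 reads per cell) in 8 of the 26 cells. One of these, N26 of CA3, passed 1000 CPM through 658 CPM of pyramidal markers together with 483 CPM of microglia markers. In the AC and CA3 cells 5 genes each of the astrocyte, oligodendrocyte and microglia lists and 3 of the vascular list had a read, whereas Aqp4, Mog, Tmem119, Cldn5, Flt1 and Pdgfrb had none. The sum over the 5 lists ran from 6.41 to 4972 CPM in AC, from 0.234 to 2241 CPM in CA3 and from 108 to 1622 CPM in CA1.

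Nos1 lies on chr5:117781032-117958840 on the plus strand of GRCm38, and Gucy1a3 and Gucy1b3, which encode the alpha 1 and beta 1 subunits of the cyclase, lie side by side on the minus strand of chromosome 3, at 82092427 to 82145789 and at 82032006 to 82074689, 17737 bases apart. Their RefSeq promoter windows, from 250 bases before to 50 bases after the start, are shown because these are the members read in the most cells and the pair of subunits that make up the cyclase. The windows are chr5:117866589-117866888 for Nos1, chr3:82145601-82145900 for Gucy1a3 and chr3:82074662-82074961 for Gucy1b3 on GRCm38.p6, each printed in the direction of its gene. Capitals mark the GC box GGGCGG, searched on both strands.

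Nos1: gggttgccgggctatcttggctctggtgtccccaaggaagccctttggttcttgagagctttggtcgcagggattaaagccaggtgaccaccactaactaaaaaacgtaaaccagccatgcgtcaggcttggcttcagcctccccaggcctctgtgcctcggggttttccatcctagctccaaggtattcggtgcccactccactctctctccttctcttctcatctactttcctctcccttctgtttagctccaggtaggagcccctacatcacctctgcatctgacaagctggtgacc
Gucy1a3: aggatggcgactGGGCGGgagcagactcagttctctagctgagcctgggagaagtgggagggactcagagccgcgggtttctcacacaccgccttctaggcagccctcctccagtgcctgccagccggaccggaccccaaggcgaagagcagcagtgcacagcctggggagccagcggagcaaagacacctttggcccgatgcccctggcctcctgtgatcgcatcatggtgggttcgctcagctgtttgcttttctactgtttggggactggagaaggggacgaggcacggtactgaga
Gucy1b3: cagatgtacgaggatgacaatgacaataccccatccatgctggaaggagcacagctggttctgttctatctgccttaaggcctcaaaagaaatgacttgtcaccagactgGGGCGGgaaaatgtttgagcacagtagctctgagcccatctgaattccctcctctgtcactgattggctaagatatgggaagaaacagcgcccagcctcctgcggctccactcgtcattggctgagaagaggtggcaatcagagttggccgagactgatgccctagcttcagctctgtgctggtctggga

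The windows of Gucy1a3 and Gucy1b3 each hold 1 GC box, a motif that occurs in 35.9% of 32544 mouse promoter windows of this length, and that of Nos1 holds none. None of the 3 windows holds the cAMP response element TGACGTCA, found in 1.80% of all windows, or the letters TATAAA, found in 13.6%. The share of G and C was 54.7% for Nos1, 62.3% for Gucy1a3 and 52.3% for Gucy1b3, beside a median of 53% over all windows. RefSeq lists a further start for Gucy1a3, and the Nos1 window lies inside the gene as GENCODE draws it, so that these windows are not the only starts of these genes.

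Of the 7 genes, Nos1 and Gucy1b3 were each read in 17 of the 26 cells, Nos1ap in 9, Gucy1a2 in 7, Gucy1a3 in 6, Prkg1 in 2 and Prkg2 in 1. Only Nos1 and Gucy1b3 had a read in at least 10 of the 23 AC and CA3 cells, the limit set for low values, and the other 5 genes did not pass it. A cell held reads on between 0 and 6 of the 7 genes, and 11 of the 26 cells held reads on 2 of them. N44 of AC had none, and N42 of AC had all but Prkg2. In RPKM, the CPM per kilobase of exon, over the 26 cells, Nos1 was highest with 11.1, followed by Gucy1a3 with 9.63, Nos1ap with 4.96, Gucy1b3 with 2.51, Gucy1a2 with 1.43, Prkg1 with 1.05 and Prkg2 with 0.133. The rank of Gucy1a3 came from few cells, since N28 and N42 held 83.9% of its reads.

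**Figure D1:**
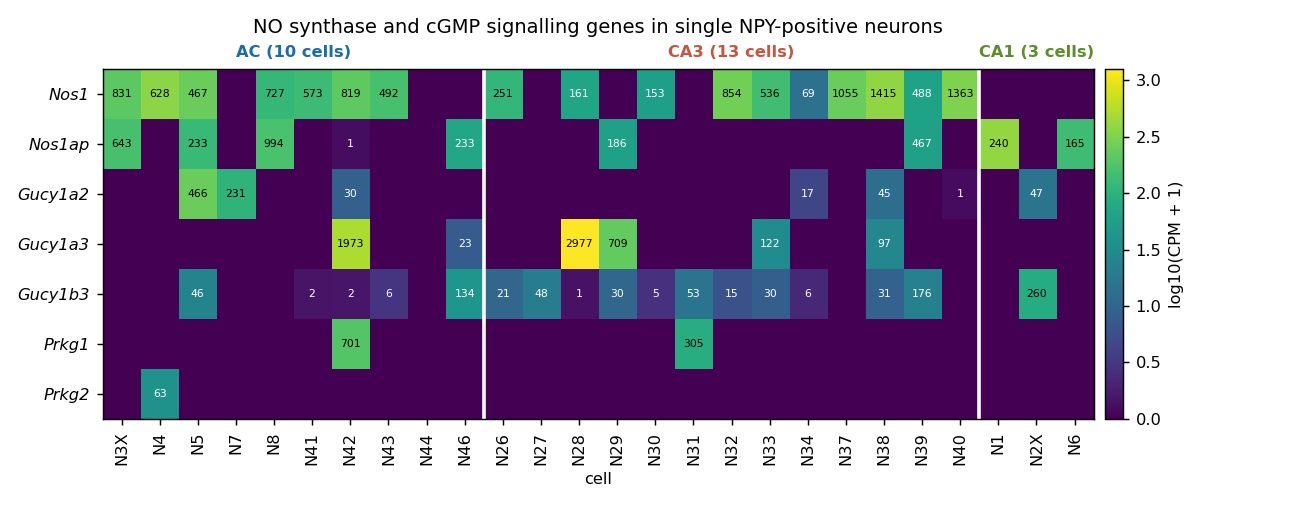
Reads on the 7 genes in each of the 26 cells, with cells as columns by region and genes as rows. Colour gives log10(CPM + 1) and the number in a square is the raw read count, with empty squares at 0. Nos1 fills 17 columns with at least 69 reads each, Gucy1b3 fills 17 columns with 1 to 260 reads, and the other rows are mostly empty.

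Nos1 was either well covered or at 0. In AC it had 831 reads in N3X, 819 in N42, 727 in N8, 628 in N4, 573 in N41, 492 in N43 and 467 in N5, and none in N7, N44 and N46. In CA3 the lowest cell with reads was N34 with 69 and the highest were N38 with 1415 and N40 with 1363, and N27, N29 and N31 had none. No cell had a count between 0 and 69, and when every cell was thinned to 601781 reads the same 17 cells still had reads. On the scale of log2(normalized count + 1), used for every level below, the AC cells with reads spanned 8.68 to 10.23 and the CA3 cells with reads 5.48 to 10.27. The range in AC thus lay within that of CA3. AC cells averaged 6.59 ± 4.57 (SD, n = 10 cells) and CA3 cells 6.58 ± 3.97 (SD, n = 13 cells), and the 0.01 between these means lies far within either SD.

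All 3 CA1 cells had no Nos1 read. The limit that a count of 0 allows, 3 reads over the summed reads of CA1, is 0.596 CPM, whereas the summed level was 133 CPM (95% counting interval 129 to 137) in AC and 130 CPM (127 to 133) in CA3. Nos1 was therefore at least 223-fold higher in AC and at least 217-fold higher in CA3 than in CA1 in these libraries. N2X holds most of the CA1 reads, and without it the limit is 1.64 CPM and the bounds are 81-fold and 79-fold. With 3 cells, however, a share of 0 has an exact 95% interval that reaches 70.8% of cells, and no label tells how many mice they came from. Intervals of CPM here and below cover counting error only, because amplified reads are not independent molecules. Those of shares treat cells as independent, though no label ties a cell to a mouse, and are given as a description.

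Nos1ap encodes an adaptor that binds the synthase through its PDZ domain. It lies on chr1:170302668-170589861 on the minus strand. In AC it had 994 reads in N8, 643 in N3X, 233 in N5 and in N46 and 1 in N42. In CA3 only N39 with 467 reads and N29 with 186 had any, and in CA1 N1 had 240 and N6 had 165. The mean level was 3.57 ± 4.39 in AC, 1.16 ± 2.83 in CA3 and 6.39 ± 5.60 in CA1 (SD over 10, 13 and 3 cells). The neighbours in the order CA1, AC, CA3 lie 2.82 and 2.41 apart, in both cases less than the SD of either neighbour. In summed reads the levels were 80.4, 61.8 and 13.4 CPM in the same order.

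The adaptor and the synthase were read together in some cells and apart in others. Nos1ap was read in 5 of the 17 cells with Nos1, or 29.4% (exact 95% interval 10.3 to 56.0%), and in 4 of the 9 cells without, or 44.4% (13.7 to 78.8%). Cells are not replicates here, so these shares are a description and were not compared by a test. N46, N29, N1 and N6 had reads on the adaptor and none on the synthase. Exons of Nos1ap share 171 bases with Gm7694 on the same strand, so that reads in this stretch cannot be told apart. Those of Nos1 share 268 bases with the antisense gene Gm26995. Whether reads there can be told apart depends on whether counting used strand, which is not given.

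The 2 genes for alpha subunits were read in few cells, with counts from 1 to 2977. Gucy1a2, at chr9:3532778-3894736 on the plus strand, encodes alpha 2, the subunit that ties the cyclase to synaptic membranes. It had 466 reads in N5, 231 in N7 and 30 in N42 of AC, 45 in N38, 17 in N34 and 1 in N40 of CA3, and 47 in N2X of CA1. The mean level was 2.30 ± 3.84 in AC, 0.75 ± 1.70 in CA3 and 1.89 ± 3.28 in CA1. The step of 1.54 from CA3 to AC is smaller than the SD of either region, and it was 0.74 without N5 and 0.89 without N7. Against CA3, CA1 was 1.14 higher with N2X and 0.75 lower without it.

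Gucy1a3 (now named Gucy1a1) had 1973 reads in N42 and 23 in N46 of AC. In CA3 it had 2977 in N28, 709 in N29, 122 in N33 and 97 in N38, and it had none in CA1. N42 and N28 alone stood above 1000 reads. AC cells averaged 1.59 ± 3.68 and CA3 cells 2.65 ± 4.34. AC minus CA3 was −1.06, smaller than either SD, and it was −2.13 without N42 and −0.28 without N28. Both cells also held reads of other cell types: microglia markers summed to 3707 CPM in N42, the highest of all AC and CA3 cells, and oligodendrocyte markers to 955 CPM in N28, again the highest. Vascular markers summed to 0.521 CPM in N42 and to 0 in N28. Without the 8 cells above 1000 CPM on the 5 lists, the remaining Gucy1a3 reads were those of N29, N33 and N38, and AC minus CA3 was −2.25. The part of these markers in the Gucy1a3 values was not tested.

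Gucy1b3 (now named Gucy1b1) encodes the beta subunit that every working dimer needs. Of the AC cells 5 of 10 had reads, or 50% (exact 95% interval 18.7 to 81.3%), beside 11 of 13 CA3 cells, or 84.6% (54.6 to 98.1%), and 1 of 3 CA1 cells. In AC the counts were 134 in N46, 46 in N5, 6 in N43 and 2 in N41 and in N42. In CA3 they ran from 1 in N28 to 176 in N39, with a median of 30 over the cells with reads, and N37 and N40 had none. N2X of CA1 had 260, the most of any cell.

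Depth bears on this gene more than on Nos1, because 6 of the 17 cells had fewer than 10 reads. With 10 reads as the limit it was found in 2 AC and 8 CA3 cells, and with all cells thinned to 601781 reads in 2 AC and 9 CA3 cells. AC cells averaged a level of 1.96 ± 2.70 and CA3 cells one of 3.69 ± 2.21. AC minus CA3, at −1.72, is smaller than both SDs, and it kept a size of at least 1 whichever of the 23 cells was left out, with a range of −2.30 to −1.51. In summed reads the gap was smaller, with 5.58 CPM (95% counting interval 4.81 to 6.43) in AC and 8.51 CPM (7.72 to 9.37) in CA3. The CA1 mean of 2.71 ± 4.69 rests on N2X alone.

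**Figure D2:**
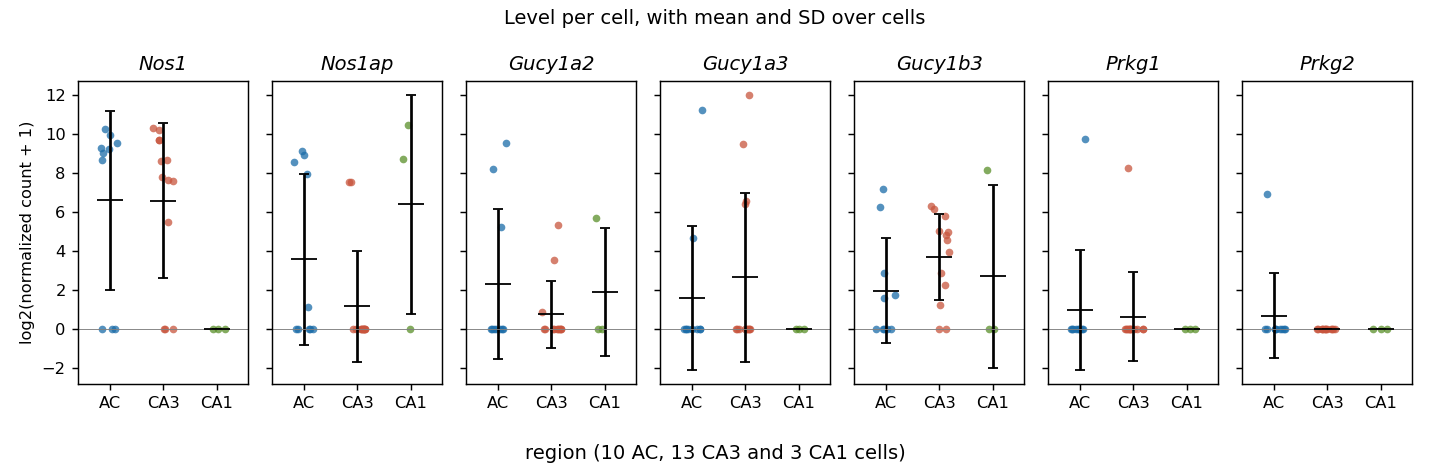
Level of each gene per cell as log2(normalized count + 1), with 10 AC, 13 CA3 and 3 CA1 cells as points and the mean and SD over cells as black bars. Cells of Nos1 fall either at 0 or above 5.48, AC and CA3 cells overlap in every panel, and the CA1 cells are all at 0 for Nos1, Gucy1a3, Prkg1 and Prkg2.

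The kinases were at the edge of what these libraries show. Prkg1, at chr19:30564489-31765033 on the minus strand, encodes the cytosolic kinase, and was read in N42 of AC with 701 and in N31 of CA3 with 305 reads. Prkg2, at chr5:98929773-99037351 on the minus strand, encodes a kinase held at membranes, and was read in N4 of AC alone with 63 reads. N42 and N4 are among the cells above 1000 CPM on markers of other cell types and N31 is not, with 85.1 CPM. The part of these markers in the kinase values was not tested. In CA3 a count of 0 allows up to 0.0614 CPM of Prkg2, and AC with 1.85 CPM was at least 30.1-fold higher, which rests on N4.

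The differences of the 7 genes between AC and CA3 were then read against all genes. All 7 had a read in the 23 cells, and with a difference of at least 1 in mean level as the measure, Nos1ap and Gucy1a2 were higher in AC and Gucy1a3 and Gucy1b3 were higher in CA3. That is 2 of 7 in each direction, where 13.6% of 13624 genes with a read were higher in AC and 32.8% were higher in CA3. Of the 2 genes past the limit for low values, Gucy1b3 was higher in CA3 by this measure, as were 48.1% of 5964 such genes, while 15.4% were higher in AC. These 5964 genes had a median difference of −0.91, so CA3 levels were higher in general, and Gucy1b3 lay 0.82 below and Nos1 0.91 above that median. The number of genes detected per cell was also higher in CA3, with a median of 5704 beside 5007.5 in AC. The part of this in the differences and in the share of cells with Gucy1b3 was not tested. None of the 7 differences exceeded the SDs of both regions. The call for Gucy1a3 was lost under 5 of 9 other settings and when any of 12 cells was left out, and that for Gucy1b3 under 2 settings, whereas Nos1ap and Gucy1a2 kept theirs under all 9. With single cells left out, Gucy1a2 fell below 1 without N5 or N7 and Nos1ap did not.

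For CA1 the background was wider still. Against CA3, Nos1ap and Gucy1a2 were at least 1 higher and Nos1 and Gucy1a3 at least 1 lower, beside 25.9% and 33.2% of 13004 genes. Against AC, Nos1ap was higher and Nos1 and Gucy1a3 were lower, beside 35.4% and 25.4% of 12209 genes. The step of 2.82 for Nos1ap was 0.79 without N1 and 6.02 without N2X. CA1 enters both comparisons with the same 3 cells, so they are not independent of each other. The Nos1 differences of −6.58 and −6.59 were the ones that exceeded the SDs of both regions.

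How the cGMP side stood to Nos1 was then followed cell by cell, with the cGMP side taken as Gucy1a2, Gucy1a3, Gucy1b3, Prkg1 and Prkg2. Of the 17 cells with Nos1, 14 or 82.4% (exact 95% interval 56.6 to 96.2%) also had a read on the cGMP side, and of the 9 cells without it 6 or 66.7% (29.9 to 92.5%) had one. N37 of CA3 had Nos1 and none of the other 6 genes, and N3X and N8 of AC had Nos1 with its adaptor alone. With 10 reads as the limit the counts were 10 of 17 and 6 of 9. As for the adaptor, these shares over cells are a description, and no test was made.

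Taking the cyclase as a dimer narrowed the picture. Reads on an alpha and on the beta subunit met in 9 cells: N5, N42 and N46 of AC, N28, N29, N33, N34 and N38 of CA3, and N2X of CA1. Of these, 6 were among the 17 cells with Nos1 (35.3%, exact 95% interval 14.2 to 61.7%) and 3 among the 9 without (33.3%, 7.49 to 70.1%). The beta subunit stood without an alpha subunit in 8 cells, 6 of them in CA3, and an alpha without beta in N7 and N40. N42 was the cell that had both subunits and a kinase, on 2 reads of Gucy1b3. No cell of the other 25 did.

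The balance of the 2 subunits varied widely between the cells where both were read. In RPKM, the alpha subunits together were higher than beta in 7 of the 9 cells and lower in N46 and N2X. The ratio of alpha to beta ran from 0.0967 in N46 to 1678 in N28, with a median of 2.62. It was 1.67 in N34, 2.29 in N33 and 2.62 in N38. In N28, N42 and N29 it exceeded 10, and in N28 and N42 it rested on 1 and 2 reads of Gucy1b3. The adjacent genes Gucy1a3 and Gucy1b3 had a Spearman's rho of 0.20 over the 26 cells.

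Among the 17 cells with Nos1, it mostly outweighed the cGMP side once exon length was taken into account. The 9 cells without Nos1 are left out of this comparison, and 6 of them had reads on the cGMP side. In RPKM it was higher than the 5 cGMP-side genes together in 13 of the 17 cells that had it, and lower in N5 (22.1 beside 43.3), N42 (19.1 beside 91.9), N28 (6.09 beside 180.2) and N39 (5.50 beside 5.64). Its share of the summed RPKM of these 6 genes ran from 3.27% in N28 to 100%, with a median of 82.8%.

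**Figure D3:**
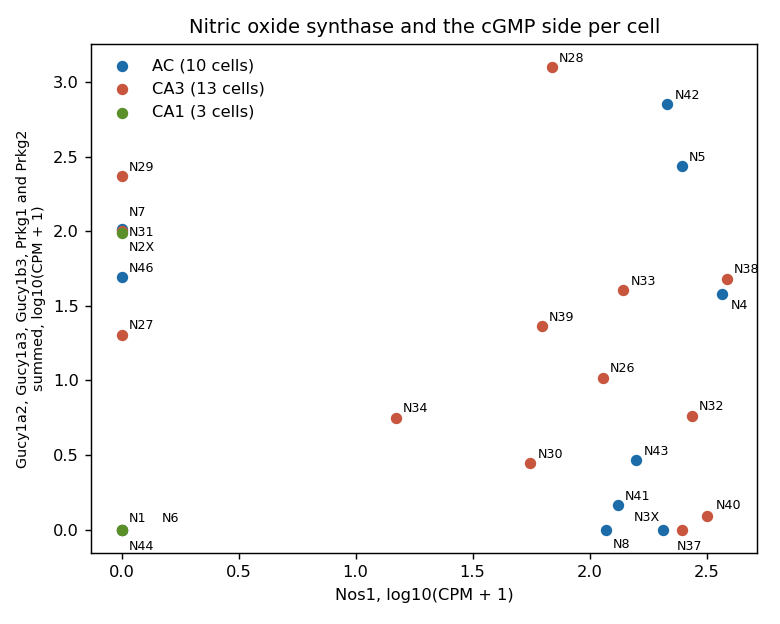
Nos1 against the summed cGMP-side genes in each of the 26 cells, both as log10(CPM + 1), coloured by region and named by cell. The 9 cells without Nos1 stand at the left edge, 6 of them with cGMP-side reads, and N28, N42 and N5 lie highest among the cells with Nos1.

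The levels of Nos1 and of the cGMP side were not ordered alike. Over the 26 cells Spearman's rho between them was −0.06, and it was −0.24 for Gucy1b3, 0.18 for Gucy1a2, 0.08 for Gucy1a3 and −0.16 for Nos1ap. For comparison, rho of Nos1 was taken with the 6596 genes read in at least 10 of the 26 cells. It had a median of 0.00, with 5% of genes below −0.32 and 5% above 0.34, and all the values above fall between these limits. Gucy1a2, Gucy1a3 and Nos1ap were read in only 7, 6 and 9 cells, so for them the limits come from genes read in more cells. These correlations are over cells that share regions and, in part, mice, and are given as a description. The Spearman correlation of Nos1 with the number of reads per cell was 0.26, and with the number of genes detected 0.07.

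By region the picture was uneven. In the 13 CA3 cells rho was −0.57 for Nos1 with Gucy1b3 and −0.43 with the cGMP side, whereas in the 10 AC cells it was 0.05 and 0.30. In CA3 the 3 cells without Nos1, N27, N29 and N31, had 48, 30 and 53 reads of Gucy1b3, and the cells with no Gucy1b3, N37 and N40, had 1055 and 1363 reads of Nos1. Other cells ran against this order, since N38 had the highest Nos1 level of CA3, 10.27, beside a Gucy1b3 level of 4.81, above the median cell, and N34 was low in both with levels of 5.48 and 2.26. Gucy1b3 lay below all but 2.87% of the genes read in at least 5 CA3 cells in its rho with Nos1, where 5% of genes fell below −0.50. The value ranged from −0.67 to −0.47 with single cells left out, was −0.32 after thinning to equal depth and 0.07 over all cells labelled CA3, and the difference between the regions was not tested.

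**Figure D4:**
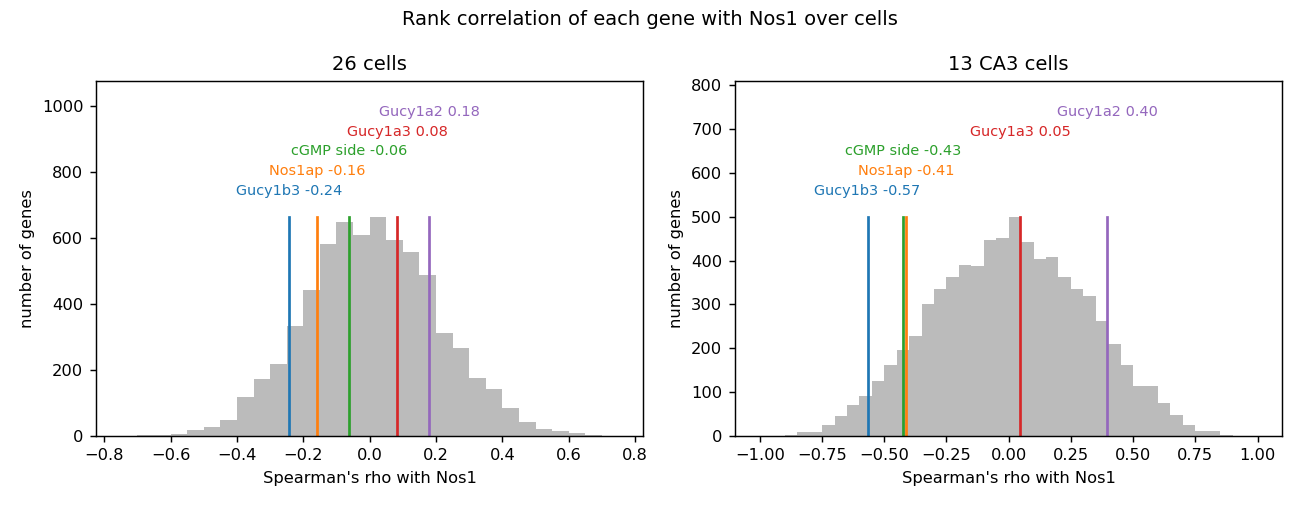
Number of genes by Spearman's rho with Nos1 (grey bars), over the 26 cells on the left and over the 13 CA3 cells on the right, with members and the summed cGMP side as coloured lines. All lines on the left lie inside the central 90% of genes, and on the right Gucy1b3 at −0.57 lies outside it. Gucy1a2, Gucy1a3 and Nos1ap were read in fewer cells than the genes of the bars.

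Markers of cell class were set beside these values, over the 26 cells and over the 23 without CA1. The Spearman correlation with Nos1 was 0.42 and 0.50 for Gad1 and −0.39 and −0.41 for the vesicular GABA transporter Slc32a1. For the markers of neurogliaform cells it was −0.37 and −0.22 for Ndnf, 0.19 and 0.19 for Car4, 0.02 and 0.15 for Lamp5, −0.06 and 0.03 for Reln and −0.03 and 0.24 for Kit, with no common direction. For Lhx6 and Nkx2-1, which mark an origin in the medial ganglionic eminence, it was 0.19 and 0.26 with the CA1 cells and 0.04 and 0.18 without them, and for Prox1 it turned from −0.19 to 0.03. Lhx6 was read in 12 of the 13 CA3 cells and in no AC cell, and in CA3 its rho with Nos1 was 0.28. The genes most alike to Nos1 of the 6596 were Hcrtr2, a receptor for orexin, with rho 0.67, Acd, a telomere protein, with 0.66, Mapkap1, a subunit of mTOR complex 2, with 0.64, Apmap with 0.64 and Ogdh, an enzyme of the citric acid cycle, with 0.62. For Gucy1b3 they were Brk1, a subunit of the WAVE complex, with 0.73, Gm2174 with 0.72, Cdk2ap2 with 0.66, C330021F23Rik with 0.65 and Rps24, a ribosomal protein, with 0.64. These are the extremes of a long ranking.

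The wider pathway was covered by 58 further genes in 7 lists, of which 42 had a read in the 23 AC and CA3 cells and 18 passed the limit for low values. Of these 18, 2 were at least 1 higher in AC and 10 at least 1 higher in CA3, or 11.1% and 55.6%, beside 15.4% and 48.1% of all 5964 such genes. Their median difference was −1.31, and that of all such genes −0.91. Among all 42, 7 were higher in AC and 12 in CA3, or 16.7% and 28.6%, beside 13.6% and 32.8% of the 13624 genes with a read. The shares thus lay near those of all genes. Under other settings the number higher in AC among the 18 was mostly 1, since Slc7a1 lay at the limit with 1.01, and the number higher in CA3 fell to 4 with summed CPM.

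The other synthases had fewer reads. Nos3, the endothelial synthase, had 8 reads over 4 AC cells, 609 over 6 CA3 cells, of which 319 lay in N38, and 4 in 1 CA1 cell. Its AC minus CA3 difference was −1.28, smaller than the SD in CA3 (2.87). Nos2, the inducible synthase, had 56 reads in N38 and none elsewhere. The 10 genes for synthase partners were all read, and 4 of the 7 past the limit were higher in CA3, or 57.1%, beside 48.1% of all genes past it. Hsp90ab1, a chaperone that binds the synthase, was read in every cell with levels of 12.18 ± 1.26 in AC and 12.62 ± 0.65 in CA3, and the light chain Dynll1, which binds the synthase too, had levels of 9.23 ± 1.97 and 8.25 ± 3.51. AC minus CA3 was −1.54 for Hsp90aa1, −1.89 for Por, a reductase, and −1.91 for Adh5, which breaks down nitrosoglutathione. Nosip, an interaction partner of the synthases, stood at 4.07 ± 4.43 in AC and at 6.07 ± 3.83 in CA3. Each of these 4 differences is smaller than the SD of at least 1 region.

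The synthase needs tetrahydrobiopterin as a cofactor, and of the genes for it Qdpr stood apart between the regions. Qdpr, which regenerates it, was read in all 13 CA3 cells, with levels of 7.77 to 11.55, and in 4 of 10 AC cells, where the highest was 10.15, and in no CA1 cell. The difference of −6.32 was larger than the SD in AC (4.98) and in CA3 (1.14). Pts, an enzyme of its synthesis, was read in 8 CA3 cells and in N46 alone of AC, a difference of −3.59 that did not exceed both SDs, and Spr, which makes the last step, differed by −0.97. Gch1, which makes the first step, had no read in any of the 26 cells, nor had its regulator Gchfr. Over 87946104 reads that allows up to 0.0341 CPM. Slc7a1, the transporter that brings in arginine, was read in 8 AC, 9 CA3 and all 3 CA1 cells.

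Of the 14 phosphodiesterase genes listed 11 were read and 5 passed the limit, among them Pde6d, which encodes a binding subunit that does not itself break down cGMP. Pde2a, which cGMP itself activates, was read in 12 of 13 CA3 cells with up to 3470 reads in N38, and in AC in N7 and a further cell with 1 read each. The levels of 6.25 ± 3.49 in CA3 and 0.22 ± 0.47 in AC differed by more than both SDs. Pde1b, which calcium and calmodulin activate, had levels of 5.61 ± 3.66 in CA3 and 0.98 ± 2.19 in AC, and the difference of −4.62 again exceeded both. In CA1 Pde1b was read in all 3 cells and Pde2a in N6 alone. AC minus CA3 was −1.33 for Pde10a, −0.37 for Pde11a and −0.50 for Pde6d. Pde9a, which is specific for cGMP, went the other way with 3.32 ± 3.75 in AC and 0.89 ± 1.70 in CA3, but it was read in only 5 and 3 cells. Pde5a, the target of sildenafil, was read in 1 AC and 2 CA3 cells.

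Receptors that make cGMP without nitric oxide were led by Npr2, the receptor of C-type natriuretic peptide. It had levels of 4.74 ± 5.03 in AC and 2.33 ± 3.65 in CA3, with reads in 5 and 4 cells, and was read in all 3 CA1 cells at 7.47 to 9.28. Gucy2g was 1.11 higher in AC, where 713 of its 716 reads lay in N46, a cell with 4972 CPM of other-cell markers, whose part in this was not tested. Nppc, the ligand of Npr2, was read in 2 AC and 3 CA3 cells. Among channels and kinase targets, Itpr1, the inositol trisphosphate receptor that the kinase can modify, had levels of 7.72 ± 3.20 in AC and 4.87 ± 3.69 in CA3. Kcnma1, a large-conductance potassium channel, had an AC minus CA3 difference of −2.23, and Rgs2 one of −0.04. Ddah1 and Pde1a, at 1.06 and 1.16 above CA3, did not pass the limit for low values. Each was read in 1 AC cell alone, Ddah1 in N46 with 1411 reads and Pde1a in N42 with 2618, cells with 4972 and 3961 CPM of other-cell markers, whose part in this was not tested. In all, 13 of the 58 genes had no read in any of the 26 cells.

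**Figure D5:**
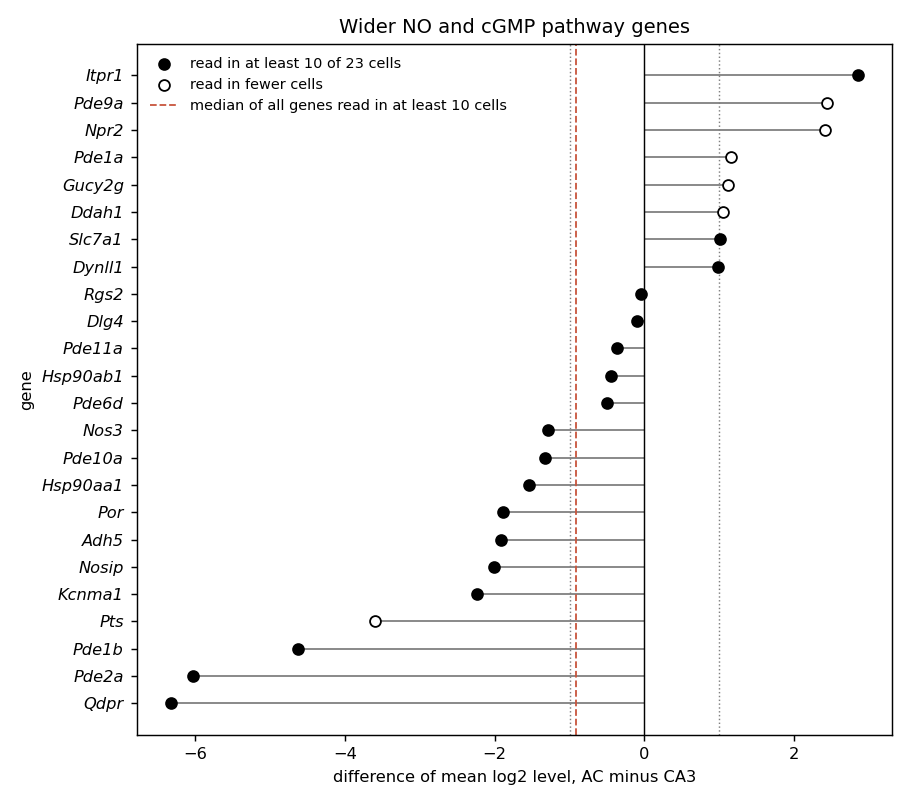
Difference of the mean log2 level between AC and CA3 (AC minus CA3) for the wider pathway genes that had a read in at least 10 of 23 cells (filled) and for those read in fewer cells that differed by at least 1 and are reported here (open). Dotted lines mark −1 and 1 and the dashed line the median of all genes at −0.91. Qdpr, Pde2a and Pde1b lie farthest to the left at −6.32, −6.03 and −4.62, and Itpr1 lies farthest to the right at 2.85.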

How the data were processed

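The authors deposited 1 table of raw counts of reads per gene symbol in 47 cells, with no normalization. The paper names HTSeq as the counter and the submitters' processing notes name featureCounts, after Trimmomatic and STAR on GRCm38. Whether counting used strand is not given in the sources used here. According to the paper, Ensembl identifiers that share a symbol in version 86 were averaged. All columns could be tied to a sample.

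The 7 genes, the 26 cells and the lists were chosen with earlier results of these data known, and the cells are a part of those labelled AC and CA3. Levels are log2(count / size factor + 1), with factors from scran 1.30.0 (pools of 10 and 20 cells) in R 4.3.3. The other scalings were library size, TMM of edgeR 4.0.16 and poscounts of DESeq2 1.42.0, which served for scaling factors alone, and no model was fitted. Further alternatives were pseudocounts of 10 and 0.1, summed CPM, a limit of 10 reads, thinning to 601781 reads (seed 1), all labelled cells, and each cell left out. Leaving out cells with over 1000 CPM of other-cell markers, or the CA1 cells, was chosen after seeing the data. CPM over a region are summed reads over summed totals. A gene at 0 has a limit of 3 reads. Intervals are exact 95% ones, Poisson for reads and Clopper-Pearson for shares. Gene positions and exon lengths came from GENCODE M21 by symbol, with all 119 listed genes matched and Gucy1a3 and Gucy1b3 found under their current names. Promoters came from RefSeq. Genes named were the 7, the pathway genes read most or at least 1 apart, and the 5 with the highest rho with Nos1 and with Gucy1b3. For 1 pathway gene no value is reported here, though counts over its list include it. The steps were tested on simulated data. N4 and N4X, the latter used only in all labelled cells as a mean with N4, had r = 0.997 on log2(CPM + 1), beside at most 0.732 in 402 other pairs, and may be 1 cell sequenced again. The remaining steps used Python 3.11.15, numpy 2.4.6, pandas 2.3.3 and scipy 1.17.1.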

Additional observations from a re-analysis of the deposited data

Results flagged for a closer look

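In groups of 10 cells, N42 stood apart from the other AC cells in Gucy1a3, with a gap of 0.583 of the whole range, and in Prkg1, with a gap of 1. N4 stood apart in Prkg2, also with a gap of 1. For both kinases the other 9 cells were at 0, so the gap is 1 by construction, and Gucy1a3 was at 0 in 8 of the 10. Chance sets 1 cell apart in about 1 of 20 groups of normally spread values, a rate that cannot be applied to genes at 0 in most cells.

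Members were also read in 9 of the 21 columns outside the 26 cells. In AC, N45 had 854 reads on Nos1 and 260 on Nos1ap, N47 had 990 on Gucy1a2, and N4X, the near copy of N4, had 1059 on Nos1 and 91 on Prkg2. In CA3, N22 had 55 on Gucy1b3, and in the dentate gyrus N12 had 16 on Gucy1a3. The NPY-negative CA3 cell had no read on any of the 7 genes. Gad1 was read in 6 of the 21 columns, N45, N47 and N4X among them and N22 and N12 not.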

How the results depend on the processing

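Of the 4 members at least 1 apart between AC and CA3, Nos1ap and Gucy1a2 stayed so under all 9 other settings. Gucy1a3 fell below 1 in size with poscounts factors, a pseudocount of 10, thinning, all labelled cells and summed CPM (−0.99, −0.68, −0.86, −0.75 and −0.45), and Gucy1b3 with a pseudocount of 10 and with summed CPM (−0.64 and −0.61). As a log2 ratio of summed CPM, Gucy1a2 rose to 4.05 and Prkg1, with reads in 1 cell of each region, to 1.72, while Prkg2, at 0 in CA3, has only a lower bound of 4.91 set by the limit of 3 reads. Nos1 had a main difference of 0.01 that took either sign under other settings. It was −0.83 without the cells over 1000 CPM on other-cell markers, and −0.54 to 0.74 with single cells left out, lowest without N29 and highest without N7. Prkg1 took −0.83 without the same marker-rich cells and −0.64 to 0.97 with single cells left out, lowest without N42 and highest without N31. The wider pathway genes at least 1 higher in AC numbered 1 with library size, TMM, poscounts, a pseudocount of 10, thinning, summed CPM or without the cells rich in other-cell markers, 4 with all labelled cells and 7 with all genes with a read. With single cells left out they numbered 1 to 3. Those higher in CA3 numbered 4 with summed CPM.

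With single CA1 cells left out, CA1 minus CA3 ran from 3.20 to 8.43 for Nos1ap, from −0.75 to 2.09 for Gucy1a2, which turned direction without N2X, and from −3.69 to 0.38 for Gucy1b3. CA1 minus AC ran from −1.96 to 2.10 for Gucy1b3 and from 0.79 to 6.02 for Nos1ap. The Spearman correlation of Nos1 with the cGMP side was 0.198 with all labelled cells, −0.17 without the CA1 cells, −0.23 without the cells rich in other-cell markers, and −0.16 to −0.014 with single cells left out. In CA3, rho of Nos1 with Gucy1b3 was −0.42 with TMM, −0.43 with poscounts, −0.32 after thinning and 0.070 with all labelled cells, and −0.67 to −0.47 with single cells left out. Cells with Nos1 and the cGMP side numbered 9 without the cells rich in other-cell markers, and cells with Nos1 and both subunits numbered 3 at a limit of 10 reads. The cause of these shifts was not tested. No paired analysis was possible because each column is 1 cell, replicate numbers only name cells and no test was made. Depth limits Gucy1b3 most, and with no mouse named for any cell the spread between mice is unknown.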
